A study of Mus musculus with 11 samples.

Results

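The 10 heat shock chaperone genes Hspa8, Hspa1a, Hspa1b, Hsp90aa1, Hsp90ab1, Dnajb1, Hsph1, Hspd1, Hspe1 and Hspb1 were followed across 11 RNA-seq libraries of mouse synovial membrane. They were chosen by gene symbol, as the main inducible and constitutive cytosolic and mitochondrial chaperones, and make up 10 of the 18804 genes in the deposited table. All 10 were among the 14892 genes with enough counts to be tested. The study asked whether a high-fat diet alters collagen-induced arthritis (CIA), a standard model of rheumatoid arthritis in which mice are usually immunised with type II collagen. All mice were of the DBA/1 strain. The regular-diet arm held 3 sham and 3 CIA libraries, and the high-fat arm 2 sham and 3 CIA libraries. The groups follow the diet given as each sample's treatment, although the growth notes name a regular diet for all 11 samples. The labels give no age, length of diet or day of arthritis, and do not say whether the replicates came from separate mice, so the p-values cover the spread between these libraries, which may be technical.

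Heat shock proteins bind unfolded or misfolded proteins. HSP70 proteins (Hspa8 in resting cells, the near-identical Hspa1a and Hspa1b after stress) work in an ATP-driven cycle with a J-domain partner such as Dnajb1 and with HSP110 (Hsph1), which exchanges their nucleotide. HSP90 (the stress-responsive Hsp90aa1 and the constitutive Hsp90ab1) matures kinases and steroid receptors, Hspb1 (HSP25, HSP27 in humans) is a small heat shock protein that holds unfolded proteins without ATP, and Hspd1 with its lid Hspe1 (HSP60 and HSP10) folds proteins inside mitochondria. Under stress, heat shock factor HSF1 binds heat shock elements, inverted repeats of the unit GAA and its complement TTC, in the promoters of many of these genes. In rheumatoid arthritis, HSP60 and HSP70 are also known as antigens recognised by T cells and antibodies.

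RefSeq windows around the start site (build GRCm38.p6, 250 bases before to 50 bases after) were available for 7 of the 10 genes, as 10 windows; Hspa8, Hsp90aa1 and Hsp90ab1 had none. The stretches below hold the elements that lie upstream of a start in these windows, with the matches to GAANNTTC or TTCNNGAA in capitals. The Hspe1 stretch (chr1:55088039-55088096, plus strand) lies between 109 and 52 bases before the Hspe1 start, the Hspb1 stretch (chr5:135887782-135887849, plus strand) between 137 and 70 bases, the Hsph1 stretch (chr5:149636342-149636389, minus strand) between 53 and 6 bases before one of its 2 annotated starts, and the Hspa1a stretch (chr17:34972233-34972280, minus strand) between 124 and 77 bases.
Hspe1: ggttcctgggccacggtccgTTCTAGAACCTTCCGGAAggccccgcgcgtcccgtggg
Hspb1: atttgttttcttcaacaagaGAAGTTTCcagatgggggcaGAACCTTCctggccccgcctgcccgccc
Hsph1: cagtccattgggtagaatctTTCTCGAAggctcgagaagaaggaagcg
Hspa1a: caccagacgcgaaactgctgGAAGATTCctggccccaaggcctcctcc
The Hspe1 stretch also lies upstream of one of the 2 annotated starts of Hspd1, which runs the other way, and the window of that start shares 285 bases with that of Hspe1. It lies downstream of the other Hspd1 start, whose window held none of the motifs searched. The stretch carries the longer 3-unit element GAANNTTCNNGAA, or its complement, in overlapping copies. The Hspa1a stretch is the same, letter for letter, in Hspa1b (chr17:34959315-34959362, minus strand).

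Both strands were searched for GAANNTTC, TTCNNGAA and the 3-unit element, which overlap each other by construction. GAANNTTC was in 7 of the 10 member windows, TTCNNGAA in 4 and the 3-unit element in 4. Of all 32851 RefSeq windows, 7.86% held GAANNTTC, 8.52% held TTCNNGAA and 0.603% held the 3-unit element. The member windows are not independent, because Hspd1 and Hspe1, the windows of Hsph1, and Hspa1a and Hspa1b share bases. Neither Dnajb1 window held any of these letters. The Hspa1a and Hspa1b windows differed at 4 of 300 bases (98.67% identical), namely C44T, T47C, T249G and C276T, counted from the first base of the window with the Hspa1a base first. Their coding sequences (GENCODE M21, 1923 and 1926 bases) matched at 99.58% of aligned bases.

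Libraries held 13677638 to 17631167 estimated reads. Hspa1a and Hspa1b had estimated counts that were not whole numbers in 11 of 11 libraries, while the other 8 genes had whole counts (to within 0.001) in all 11. Over all genes 11.98% of values were not whole. The division of reads between Hspa1a and Hspa1b is therefore uncertain, and they are also given as a sum. RefSeq (GRCm38.p6) places them on chromosome 17, at chr17:34969359-34972156 and chr17:34956429-34959238. Levels below are CPM (counts normalised to TMM-scaled library totals) unless TPM (per length) is named, and compare one gene between libraries.

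Between genes, on the per-length TPM scale, Hspa8 was the most abundant, with a mean of 1084 ± 398 TPM (SD, n = 11 libraries), and Hspa1a the least, with 5.60 ± 2.75 TPM. Hsp90ab1 followed Hspa8 with 575 ± 144 TPM, and Hspa8 was above Hsp90ab1 in all 11 libraries. Hspe1 (213 ± 61.1 TPM), Hspd1 (186 ± 55.1 TPM), Hspb1 (150 ± 50.4 TPM) and Hsp90aa1 (137 ± 58.7 TPM) formed a middle tier with overlapping ranges. Each was above the next in 8, 7 and 6 of 11 libraries. The place of Hspb1 differed between sham and CIA groups. Mean Hspb1 was above mean Hspd1 in regular-diet sham (190 against 169 TPM) and high-fat sham (204 against 165 TPM). It was below mean Hspd1 in regular-diet CIA (120 against 188 TPM) and high-fat CIA (105 against 216 TPM). Dnajb1 (25.7 ± 2.43 TPM), Hsph1 (20.8 ± 11.8 TPM) and Hspa1b (13.2 ± 5.83 TPM) came lower, and Hspa1b was above Hspa1a in all 11 libraries. Together the 10 genes made up between 0.175% of TPM in regular-diet sham a and 0.395% in high-fat CIA a.

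**Figure D1:**
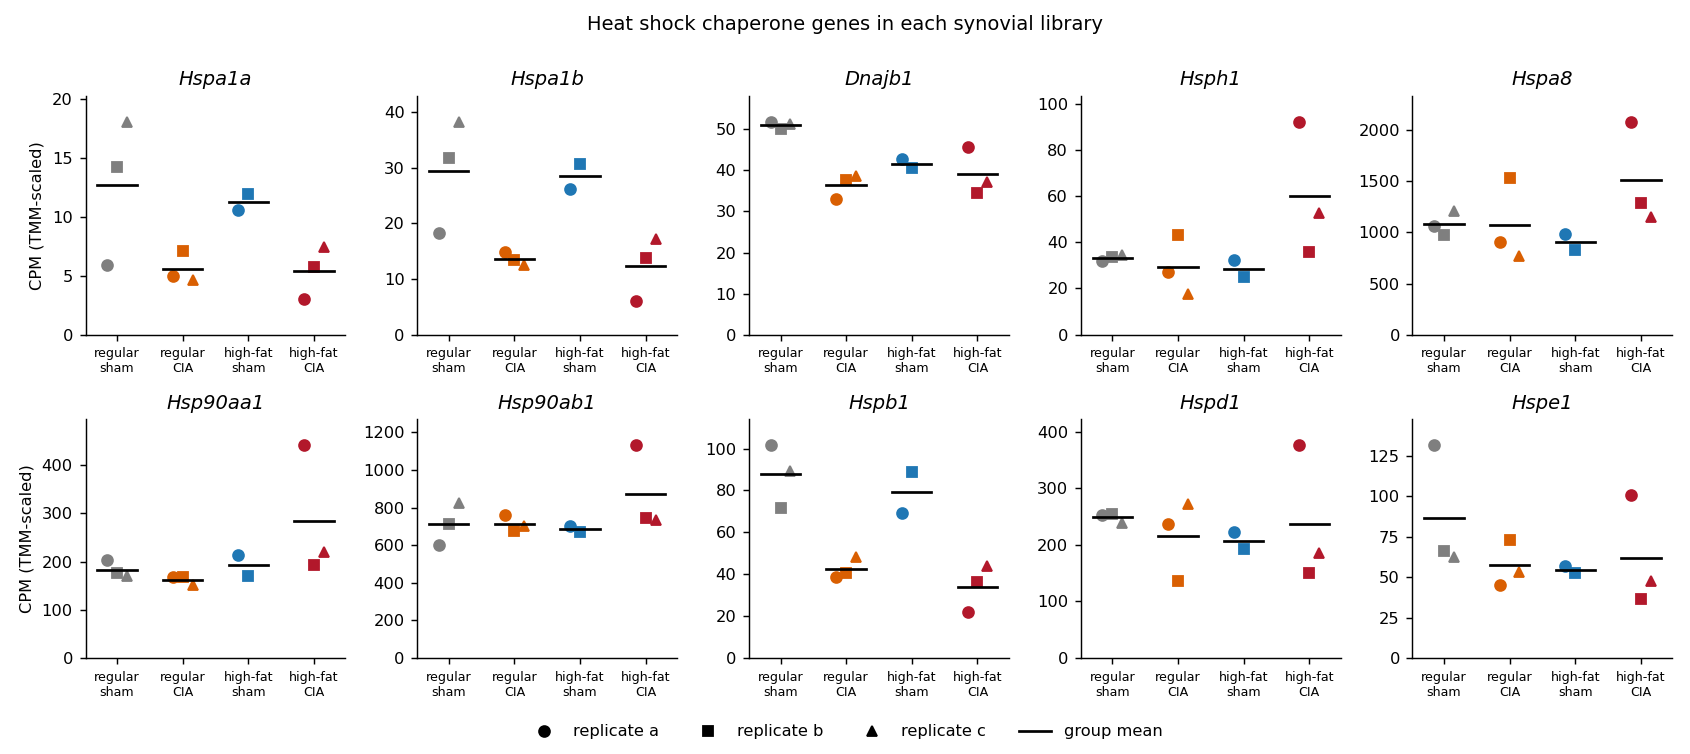
Level of each of the 10 chaperone genes in CPM (y axes start at 0) in each of the 11 libraries, by group on the x axis, with the group mean as a bar and the replicate as the symbol. Hspb1 and Hspa1b are lower in every CIA library than in every sham library, and high-fat CIA a is the highest library for Hspa8, Hsp90aa1, Hsp90ab1, Hsph1 and Hspd1.

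Averaged over both diets, CIA against sham, 3 of the 10 genes fell and none rose: Hspb1, Hspa1b and Hspa1a, each by more than 2-fold (Benjamini-Hochberg adjusted p under 0.05 in edgeR's quasi-likelihood test over 14892 genes). The calls of Hspa1a and Hspa1b are not independent, because the division of reads between them is uncertain. The background was 23.8% of all tested genes called, 10.8% lower and 13% higher. The groups did not overlap, CIA lower, for 2 of the 10 (Hspb1 and Hspa1b), against 4.68% of all genes. The median log2 fold change of the 10 was -0.11, beside 0.04 for all genes tested. The constitutive Hspa8, both HSP90 genes and the mitochondrial pair did not pass the test. The high-fat sham group has only 2 libraries, and the count of 3 became 1 without high-fat sham a and 0 without high-fat sham b. Among all genes, the 3542 calls of this comparison became 1236 without high-fat sham a and 2 without high-fat sham b, so the list and marker calls given below over both diets rest on these libraries too.

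Hspb1 (chr5:135887919-135889563), the small heat shock protein with the element pair shown above, gave the clearest difference. In sham mice it was at 102, 71.8 and 89.4 CPM on the regular diet and at 69.4 and 89.0 CPM on the high-fat diet. In CIA mice it was at 38.6, 40.5 and 48.2 CPM on the regular diet and at 22.1, 36.3 and 43.9 CPM on the high-fat diet. Every CIA library lay below every sham library, and the lowest was high-fat CIA a. On the TPM scale the groups did not overlap either, with 172 to 227 TPM in sham and 60.1 to 142 TPM in CIA libraries. Over both diets its log2 fold change was -1.13 ± 0.18 (SE), a 2.19-fold lower level (adjusted p = 0.00692). It was -1.22 ± 0.27 on the high-fat diet (adjusted p = 0.0287) and -1.05 ± 0.25 on the regular diet (adjusted p = 0.175), and the effects on both diets differed by -0.17 ± 0.37 (adjusted p = 0.989). The call over both diets was lost without high-fat sham b (adjusted p = 0.0571). That on the high-fat diet was lost without regular-diet sham b (0.0522) or c (0.0541), high-fat sham a (0.119) or b (0.273) or high-fat CIA b (0.0616), and in a fit of only the groups compared (0.0779).

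The stress-inducible HSP70 pair fell as well. Hspa1b was at 18.2, 31.8 and 38.2 CPM in regular-diet sham, 14.8, 13.5 and 12.5 in regular-diet CIA, 26.2 and 30.6 in high-fat sham and 6.11, 13.8 and 17.2 CPM in high-fat CIA libraries. All 6 CIA libraries were below all 5 sham libraries, with regular-diet sham a close to the highest CIA library. On the TPM scale that library (8.41 TPM) lay within the CIA range of 4.19 to 14.2 TPM, so that the groups overlapped there. The log2 fold change of Hspa1b over both diets was -1.16 ± 0.27 (adjusted p = 0.0170), with -1.11 ± 0.37 on the regular diet (adjusted p = 0.198) and -1.20 ± 0.40 on the high-fat diet (adjusted p = 0.0783). The call was lost without high-fat sham a (adjusted p = 0.0521) or b (0.0819).

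Hspa1a was at 5.89, 14.3 and 18.1 CPM in regular-diet sham, 4.99, 7.13 and 4.63 in regular-diet CIA, 10.6 and 11.9 in high-fat sham and 3.03, 5.73 and 7.45 CPM in high-fat CIA libraries. Regular-diet sham a lay inside the CIA range, and the other 4 sham libraries were above all CIA libraries. Over both diets the log2 fold change was -1.13 ± 0.32 (adjusted p = 0.0328), with -1.19 ± 0.44 on the regular diet (adjusted p = 0.218) and -1.06 ± 0.48 on the high-fat diet (adjusted p = 0.162). Of the 3 calls over both diets this one was lost under the most settings. Leaving out regular-diet sham b or c, regular-diet CIA a or c, high-fat sham a or b, or high-fat CIA b each ended it (adjusted p = 0.0527 to 0.11), as did both fits on log2 FPKM (0.0546 and 0.0572). With the counts of the pair summed, which removes the uncertain division of reads, the log2 fold change over both diets was -1.15 (adjusted p = 0.0182).

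Dnajb1 (chr8:83608175-83612653), the J-domain partner that delivers substrates to HSP70, was at 51.9, 50.01 and 51.2 CPM in regular-diet sham and at 33.1, 37.8 and 38.7 CPM in regular-diet CIA libraries. It was at 42.8 and 40.5 CPM in high-fat sham and at 45.7, 34.5 and 37.3 CPM in high-fat CIA libraries. The regular-diet groups did not overlap and the high-fat groups did. On the TPM scale the regular-diet groups overlapped too, with 22.1 to 28.3 TPM in sham and 22.8 to 25.2 TPM in CIA libraries. CIA against sham gave a log2 fold change of -0.48 ± 0.15 on the regular diet (adjusted p = 0.189), -0.09 ± 0.16 on the high-fat diet (adjusted p = 0.736) and -0.29 ± 0.11 over both (adjusted p = 0.0783). Over both diets it was called by DESeq2 (adjusted p = 0.0388), with upper-quartile scaling (0.0499), without high-fat CIA a (0.0288) and with the adipocyte covariate described below (0.0445), and under no other alternative run.

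The HSP110 gene Hsph1 (chr5:149616843-149636498) had its highest levels in high-fat CIA libraries. It was at 31.97, 33.8 and 34.4 CPM in regular-diet sham, 27.3, 43.1 and 17.8 in regular-diet CIA, 32.2 and 25.0 in high-fat sham and 92.2, 35.7 and 52.8 CPM in high-fat CIA libraries. All 3 high-fat CIA libraries were above both high-fat sham libraries, with high-fat CIA a far above the others, while the regular-diet groups overlapped. The log2 fold change of CIA against sham was 1.08 ± 0.42 on the high-fat diet (adjusted p = 0.119) and -0.18 ± 0.37 on the regular diet (adjusted p = 0.822). The difference between these effects was 1.26 ± 0.56, with a 95% interval from 0.02 to 2.50 (unadjusted p = 0.0473, adjusted p = 0.989). Without high-fat CIA a the high-fat effect was 0.63 (adjusted p = 0.279).

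Hspa8 (chr9:40801276-40805202), the constitutive HSP70, was at 1061, 977 and 1211 CPM in regular-diet sham, 906, 1528 and 774 in regular-diet CIA, 981 and 832 in high-fat sham and 2081, 1292 and 1152 CPM in high-fat CIA libraries. The high-fat groups did not overlap and the regular-diet groups did, with regular-diet CIA b high. The log2 fold change of CIA against sham was 0.73 ± 0.37 on the high-fat diet (adjusted p = 0.207), -0.02 ± 0.32 on the regular diet (adjusted p = 0.983) and 0.36 ± 0.24 over both (95% interval -0.19 to 0.90). Without high-fat CIA a, the effect on the high-fat diet was 0.43 (adjusted p = 0.427).

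The stress-responsive HSP90 gene Hsp90aa1 (chr12:110691036-110696395) was at 203, 177 and 170 CPM in regular-diet sham, 167, 168 and 152 in regular-diet CIA, 214 and 171 in high-fat sham and 442, 192 and 220 CPM in high-fat CIA libraries. High-fat CIA a stood far above the other 10 libraries, which lay between 152 and 220 CPM. The log2 fold change on the high-fat diet was 0.56 ± 0.33 (adjusted p = 0.267) and became 0.10 (adjusted p = 0.764) without that library. Hsp90ab1 (chr17:45567778-45573261), the constitutive HSP90 gene, ranged from 603 to 825 CPM in the 10 libraries other than high-fat CIA a, which was at 1133 CPM. Its log2 fold change over both diets was 0.17 ± 0.18 (95% interval -0.22 to 0.57, adjusted p = 0.500).

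The mitochondrial pair is encoded head to head, Hspd1 at chr1:55077833-55088243 and Hspe1 at chr1:55088148-55091317. Their annotated ends overlap, and whether the library kit keeps strand is not given in the sources used here, so that reads in the overlap could belong to either gene. Hspd1 was at 253, 255 and 238 CPM in regular-diet sham, 237, 136 and 272 in regular-diet CIA, 222 and 192 in high-fat sham and 377, 151 and 185 CPM in high-fat CIA libraries. Its groups overlapped on both diets, and its log2 fold change over both was -0.01 ± 0.26 (95% interval -0.59 to 0.58). Hspe1 was at 132, 66.1 and 62.4 CPM in regular-diet sham, 45.1, 73.0 and 53.4 in regular-diet CIA, 56.7 and 52.5 in high-fat sham and 101, 36.5 and 47.6 CPM in high-fat CIA libraries. Regular-diet sham a and high-fat CIA a were high and the groups overlapped. Over both diets its log2 fold change was -0.21 ± 0.30 (95% interval -0.88 to 0.46).

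**Figure D2:**
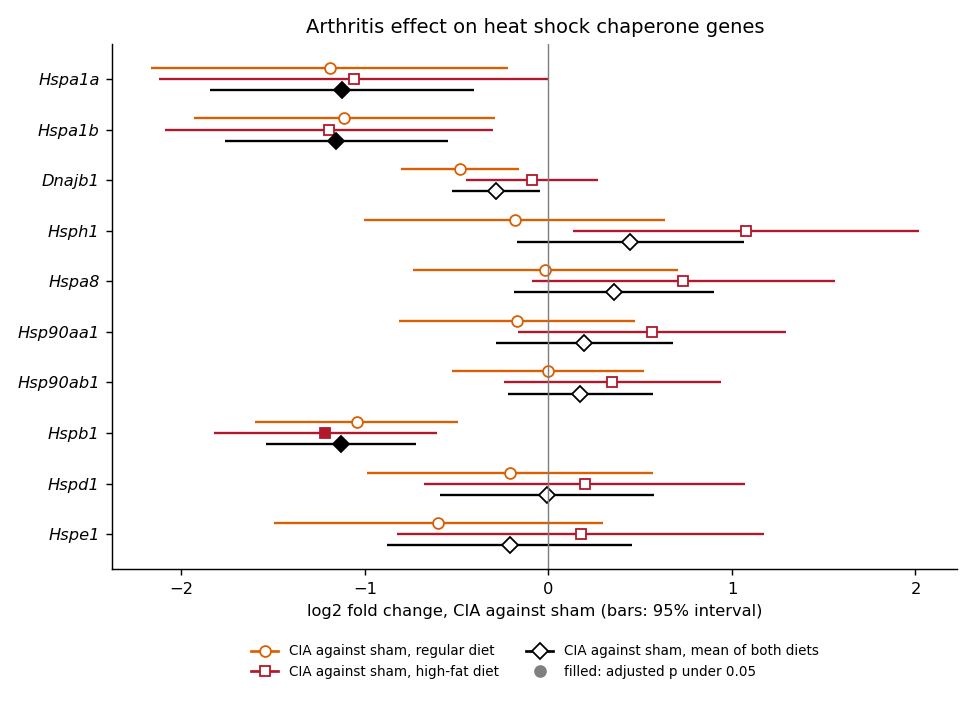
Log2 fold change of CIA against sham (x axis) for each gene on the regular diet, on the high-fat diet and as the mean of both, with 95% intervals; filled symbols have an adjusted p under 0.05. Hspb1 (-1.13), Hspa1b (-1.16) and Hspa1a (-1.13) are filled for the mean of both diets, and Hsph1 lies at 1.08 on the high-fat diet and at -0.18 on the regular diet.

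Taken diet by diet, fewer genes passed. On the regular diet all 10 had a log2 fold change below 0, beside 44.7% of all genes. The median was -0.35, beside 0.06 for all genes. Hsp90ab1 (-0.0023) and Hspa8 (-0.018) lay close to 0. Their signs, and those of Hspd1 and Hsph1, turned in some alternative runs. None of the 10 was called by edgeR's quasi-likelihood test. Only 0.0269% of all tested genes were called there. At an unadjusted p under 0.05 there were 4 members (Hspa1a, Hspa1b, Dnajb1 and Hspb1), beside 17.3% of all genes, and DESeq2 called 2 (Dnajb1, adjusted p = 0.0289, and Hspb1, 0.00903). The groups did not overlap, CIA lower, for 4 of 10 (Hspa1b, Hsp90aa1, Dnajb1 and Hspb1), beside 13% of all genes. Hsp90aa1 did so narrowly, with at most 168 CPM in CIA and at least 170 CPM in sham libraries. In TPM its groups overlapped (sham 92.1 to 105.9, CIA 105.6 to 122.5). Mean TPM was higher in CIA than in sham for some members. These were Hspa8 (1037 against 832), Hsp90aa1 (113 against 99.3), Hsp90ab1 (573 against 455), Hsph1 (16.2 against 14.7) and Hspd1 (188 against 169). For the others it was lower.

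On the high-fat diet 1 of 10 fell, Hspb1, and none rose, with 10.8% of all genes called, 5.75% lower and 5.06% higher. Groups did not overlap for 3 members with CIA lower (Hspb1, Hspa1b and Hspa1a), beside 27.7% of all genes, and for 3 with CIA higher (Hspa8, Hsp90ab1 and Hsph1), beside 27.5%. These shares are near the background and the median of the 10 was 0.19, beside 0.02 for all genes. The authors' deposited table, from their own comparisons, lists a q-value under 0.05 for 2 members on the regular diet (Hspb1, q = 0.0011, and Hspa1b, q = 0.0381), among 445 genes in all. On the high-fat diet the authors' deposited table lists 1 member (Hspb1, q = 0.0141) among 3488 genes. Between the diets the authors' deposited table lists no member, among 695 genes in CIA and 1372 in sham mice.

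Between the diets no member was called in sham mice, where 0% of all genes were called and 7.82% had an unadjusted p under 0.05; DESeq2 also called 0 members and no member had an unadjusted p under 0.05. The log2 differences in sham mice ran from -0.67 ± 0.46 (Hspe1) to 0.07 ± 0.32 (Hsp90aa1). In CIA mice 0 of 10 were called by edgeR's quasi-likelihood test, beside 3.95% of all genes, and 2 had an unadjusted p under 0.05, as did 23.8% of all genes. Those were Hsph1, higher on the high-fat diet by 1.04 ± 0.37 (log2, adjusted p = 0.131), and Hsp90aa1, higher by 0.81 ± 0.29 (adjusted p = 0.133). DESeq2 called both (adjusted p = 0.0495 and 0.0464). Without high-fat CIA a these differences were 0.59 and 0.34, and without regular-diet CIA b that of Hsph1 was 1.42 (adjusted p = 0.0264). The diet comparisons share libraries with the arthritis comparisons. For the difference between the arthritis effects on both diets, 0 of 10 were called, as were 0% of all genes; at an unadjusted p under 0.05 there was 1 member (Hsph1), beside 4.26% of all genes, and DESeq2 called 0 members.

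The balance between inducible and constitutive HSP70 can be read within a library, which removes its scaling. Summed Hspa1a and Hspa1b per 1000 TPM of Hspa8 came to 16.5, 34.2 and 33.6 in regular-diet sham, 15.8, 9.75 and 16.1 in regular-diet CIA, 27.2 and 37.0 in high-fat sham and 3.18, 10.98 and 15.5 in high-fat CIA libraries. All CIA libraries were below all sham libraries, with regular-diet sham a just above the highest CIA library. The Hspe1 to Hspd1 ratio (TPM) was 2.10 in regular-diet sham a and 2.21 in regular-diet CIA b, and between 0.794 and 1.11 in the other 9 libraries.

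**Figure D3:**
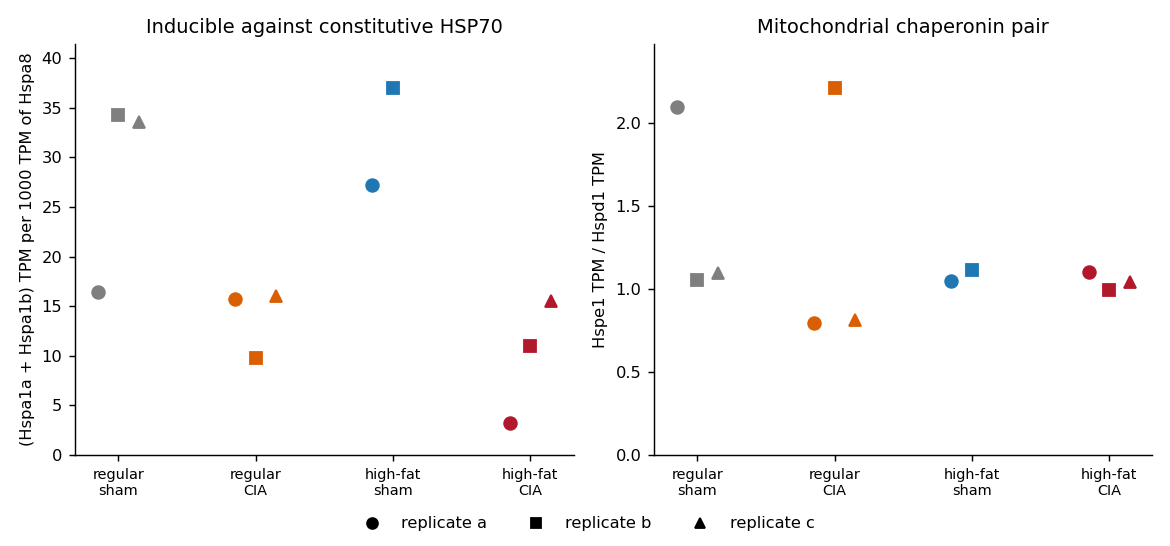
Left, summed Hspa1a and Hspa1b TPM per 1000 TPM of Hspa8, and right, Hspe1 TPM divided by Hspd1 TPM (y axes start at 0), for each library by group. The left ratio is 3.18 to 16.1 in CIA libraries and 16.5 to 37.0 in sham libraries, and the right ratio is above 2 in regular-diet sham a and regular-diet CIA b.

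Other genes of the heat shock system were read from lists by class, and values are log2 fold changes of CIA against sham over both diets, with edgeR's Benjamini-Hochberg adjusted p. Of the remaining small heat shock proteins, 4 of the 5 tested fell and none rose, beside 10.8% of all genes called lower, with a median of -0.95 beside 0.04 for all genes. Hspb3 and Cryaa had too few reads to test. Cryab (alpha-B crystallin, chr9:50745951-50756636) fell by 1.53 ± 0.25 (adjusted p = 0.00692), Hspb2 by 1.08 ± 0.26 (adjusted p = 0.0183), Hspb8 by 0.95 ± 0.17 (adjusted p = 0.00859) and Hspb6 by 0.70 ± 0.20 (adjusted p = 0.0314), while Hspb7 was at -0.55 ± 0.41 (adjusted p = 0.346). The annotated span of Cryab holds Hspb2 (chr9:50751072-50752354), so reads there could belong to either. Cryab was at 157, 115 and 127 CPM in regular-diet sham, 82.3, 38.5 and 82.5 in regular-diet CIA, 112 and 113 in high-fat sham and 16.0, 27.9 and 35.9 CPM in high-fat CIA libraries. The CIA and sham libraries did not overlap, and the high-fat CIA libraries were below the regular-diet CIA ones. On the high-fat diet alone the same 4 genes were called lower, from -2.08 ± 0.37 (Cryab) to -1.13 ± 0.29 (Hspb6), and on the regular diet edgeR called none of the 5, with 2 at an unadjusted p under 0.05. No gene of the table was called on the high-fat diet without high-fat sham a or without high-fat sham b. Between the diets in CIA mice Hspb6 was at -1.15 ± 0.27 (adjusted p = 0.0467) and Cryab at -1.35 ± 0.34 (adjusted p = 0.0537). No gene was called there with the replicate block, in a fit of only the groups compared, or without any single library other than regular-diet CIA b.

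**Figure D4:**
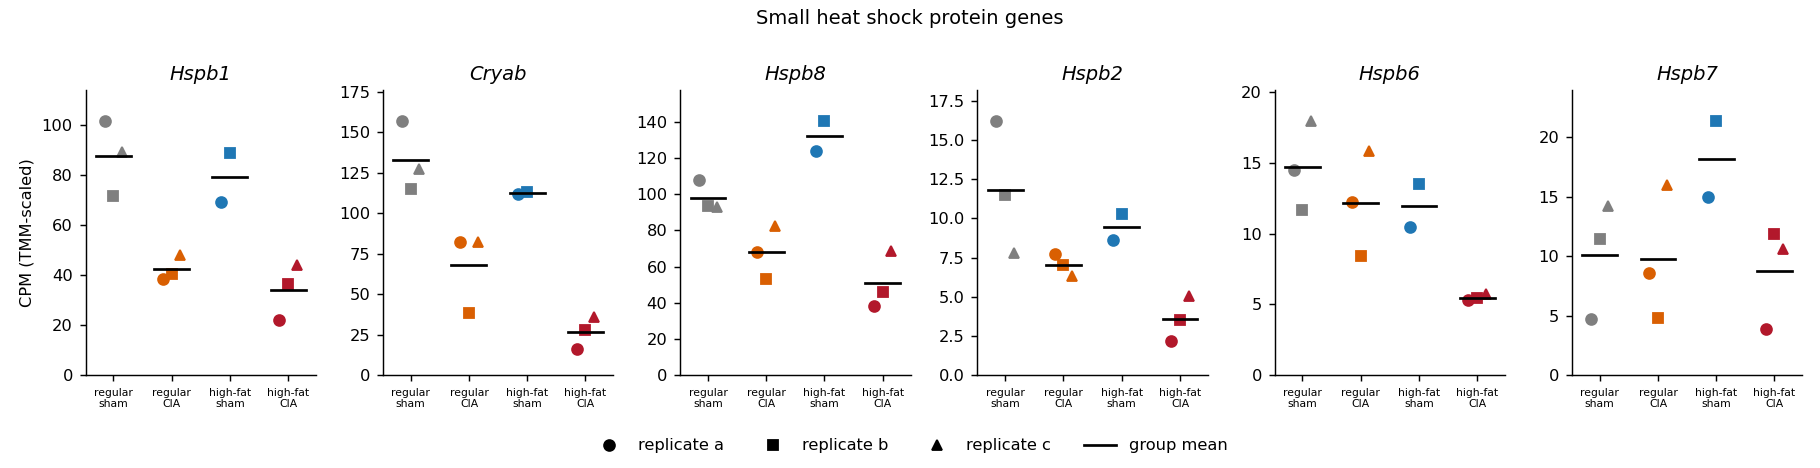
Level of 6 small heat shock protein genes in CPM (y axes start at 0) in each library by group, with the group mean as a bar. Hspb1, Cryab, Hspb8 and Hspb2 are lower in every CIA library than in every sham library, as are 4.68% of all genes, and Hspb6 and Hspb7 overlap. Hspb2 separates narrowly, with at most 7.70 CPM in CIA and at least 7.80 CPM in sham libraries.

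In the lists that follow, the shares of genes that fell stand beside 10.8% of all genes called lower, and rest on at most 3 genes a list. Of 13 other cytosolic HSP70, HSP110 and HSP40 genes 3 fell and none rose: the HSP70 gene Hspa2 (-0.76 ± 0.16, adjusted p = 0.0121) and the J-domain genes Dnajb4 (-0.73 ± 0.18, adjusted p = 0.0193) and Dnajb2 (-0.72 ± 0.14, adjusted p = 0.00925), with a list median of -0.13. Of 14 co-chaperones 2 fell, the nucleotide exchange factor Bag1 (-0.83 ± 0.16, adjusted p = 0.00982) and the ubiquitin ligase Stub1 (CHIP, -0.67 ± 0.21, adjusted p = 0.0421), and none rose, a share near the background. On the high-fat diet alone, Dnajb4, Dnajb2, Hspa2 and Bag1 were also called lower, with adjusted p from 0.0205 to 0.0372, calls that were lost without high-fat sham a and without high-fat sham b. Among the heat shock factors Hsf1 was at -0.10 ± 0.18 (adjusted p = 0.720), with 35.6 to 39.9 CPM in sham and 27.6 to 52.9 CPM in CIA libraries. Hsbp1, which binds heat shock factor trimers, fell by 0.66 ± 0.15 (adjusted p = 0.016), the only one called of 4.

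In mitochondria, 2 of 9 further chaperones and proteases fell and none rose, the exchange factor Grpel1 (-0.78 ± 0.17, adjusted p = 0.0132) and the protease Clpp (-0.70 ± 0.16, adjusted p = 0.0149), and the list median was -0.36. None of the 8 subunits of the cytosolic chaperonin TRiC was called in edgeR, and their median was 0.08. None had an unadjusted p under 0.05 in that test, beside 5834 of all 14892 genes. The most abundant, Tcp1 and Cct2, were at 0.06 ± 0.18 and 0.16 ± 0.20. None of 15 chaperones of the endoplasmic reticulum was called, with 1 at an unadjusted p under 0.05, beside the same 5834 of 14892 genes. All 15 had a log2 fold change above 0 (median 0.31), as did 7860 of 14892 genes. By diet, 7 of 15 were above 0 on the regular diet (median -0.0034) and 15 of 15 on the high-fat diet (median 0.56). The most abundant were the disulfide isomerase P4hb (0.35 ± 0.22) and calreticulin, Calr (0.34 ± 0.21). Of 11 immediate early genes, 2 AP-1 genes fell, Jund (-0.72 ± 0.15, adjusted p = 0.0118) and Jun (-0.60 ± 0.19, adjusted p = 0.0416), and none rose, a share near the background too.

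**Figure D5:**
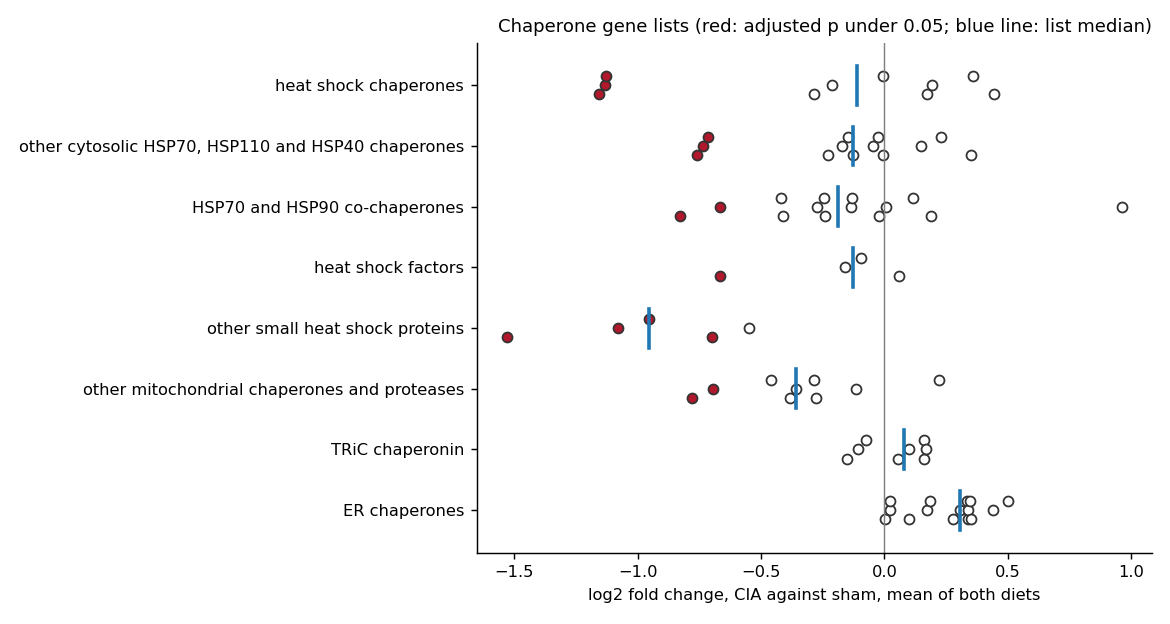
Log2 fold change of CIA against sham over both diets (x axis) for each tested gene of the 10 chaperones and of 7 related lists, 1 point per gene, with called genes filled and list medians as blue lines. The other small heat shock proteins have a median of -0.95, and the endoplasmic reticulum chaperones lie from 0.00 to 0.50 with none called.

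Markers of the tissue's cell types moved with the same comparison. The 8 adipocyte markers summed to 29073 to 40588 CPM in regular-diet sham, 7740 to 25143 in regular-diet CIA, 15197 to 18659 in high-fat sham and 1639 to 6794 CPM in high-fat CIA libraries. Of the 8, 5 fell and none rose over both diets, with a median of -1.39. Added as a covariate after the data were seen, the mean of these markers brought the log2 fold change of Hspb1 over both diets to -0.70 (adjusted p = 0.0518), of Hspa1b to -0.61 (0.256) and of Hspa1a to -0.90 (0.228). It also turned Hspa8 to -0.39 and Hsph1 to -0.55 (adjusted p = 0.153 and 0.0657), and Dnajb1 (-0.47, adjusted p = 0.0445) and Hspe1 (-1.07, 0.0447) were then called. Within each diet the adipocyte sums of sham and CIA libraries did not overlap. The fit can therefore not separate this covariate from arthritis, and its shifts assign no share to adipocytes. In bulk tissue, fewer cells of a type and less RNA per cell cannot be told apart either.

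The synovial fibroblast markers (8, led by Prg4 and Col3a1) were present in all libraries and summed to 14367 to 37913 CPM on the regular diet and 25261 to 54883 CPM on the high-fat diet. High-fat CIA a had the highest fibroblast sum and the lowest adipocyte sum. Over both diets 4 of these 8 rose, as did 4 of 8 macrophage, 5 of 8 neutrophil, 3 of 7 T and natural killer cell and 2 of 7 cartilage markers, with none called lower. Of all genes, 13% were called higher and 10.8% lower in this comparison. None of 6 endothelial markers was called in edgeR, with 1 at an unadjusted p under 0.05, beside 5834 of 14892 genes. Of the erythroid markers, 2 of 7 fell. The 10 skeletal muscle markers, a tissue rich in Cryab and Hspb6, summed to 955 CPM in regular-diet sham c and to 190 CPM or less elsewhere, and 5 of 10 fell; Myh4 and Ckm were at 0 in single libraries. Cryab was at 127 CPM in regular-diet sham c, and at 157 and 115 CPM in regular-diet sham a and b, whose muscle sums were 5.73 and 5.46 CPM. On the high-fat diet the muscle sums were 62.1 and 190 CPM in sham and 3.32, 2.77 and 37.2 CPM in CIA libraries. Without regular-diet sham c the log2 fold change of Hspb1 over both diets was -1.14 (adjusted p = 0.0176). Without high-fat sham b, a fit in which the call was lost as given above, it was -1.05. The part of skeletal muscle and of the other cell types in the chaperone results was not tested.

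Of 12932 genes compared, the 5 whose deviation from their group mean (log2 CPM, 11 libraries) was most like that of the mean of Hspa1a, Hspa1b, Hsph1 and Dnajb1 were Col6a1 (Pearson r = 0.95), Col6a2 (0.94), Zfp870 (0.94), Mprip (0.93) and Cdk5rap2 (0.92). These are descriptions over libraries that share their depth and cell makeup. The correlations are the largest picked from 12932 and were not tested. The averaged chaperone genes did not move together throughout. In high-fat CIA a, Hspa1a and Hspa1b were at their lowest of the 11 libraries (3.03 and 6.11 CPM) and Hsph1 at its highest (92.2 CPM).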

How the data were processed

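Total RNA of mouse synovial membrane was sequenced in 11 libraries. Per the file headers, the authors deposited expected counts (estimated reads per gene, not normalized), FPKM and TPM values, and for their own comparisons a log2 fold change and a q-value, all in 1 table of 18804 genes. The genome GRCm38.p6 and the tools RSEM 1.2.12, Bowtie2 2.2.5 and DESeq2 1.4.5 are named, with no step for each, per the submitters' processing notes. Whether the counting used strand is not given in the sources used here.

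Expected counts were rounded, filtered with filterByExpr (14892 genes left), TMM-scaled and fitted with edgeR 4.0.16 (R 4.3.3, glmQLFit, robust) with 1 mean per group over all 11 libraries, because high-fat sham has 2. Calls have a Benjamini-Hochberg adjusted p under 0.05 over all tested genes, and all tests are two-sided. SE was taken from the F test (size of the log2 fold change over root F). The mean of both diets is the average of the CIA effects. Groups come from the sample titles. Replicates of a group differed by 18.4 to 266 chi-square units per degree of freedom over genes, so none was counted as a duplicate. The table's 1 empty line was left out.

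Alternatives were DESeq2 1.42.0, limma 3.58.1 (voom, and log2 FPKM with pseudocounts of 1 and 0.1), RLE and upper-quartile scaling, no filter, CPM of 1 or more in 3 libraries, the 20 most abundant genes left out, only the groups compared, a replicate block and leave-one-out fits. The adipocyte covariate and the summed Hspa1a and Hspa1b counts were added after the data were seen. Promoter windows and positions are those of RefSeq for GRCm38.p6, matched by gene ID for 18663 of 18804 genes. The table's own positions were not used.

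The 10 genes and the gene lists were chosen with earlier results of these data known. Named are all 10, up to 4 called genes per pathway list with the largest log2 fold change (or the up to 2 most abundant where none was called), up to 2 most abundant per marker list, and the 5 genes of most similar pattern. TRiC, endoplasmic reticulum, mitochondrial, co-chaperone, heat shock factor, small heat shock protein, immediate early and 9 marker lists were read. Hspb7, Hsf1, Ckm and the value of Cryab between the diets fall outside that rule and were named after their values were seen.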

Additional observations from a re-analysis of the deposited data

How the results depend on the processing

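The count of chaperone genes called moved as follows. DESeq2 called 2 on the regular diet in place of 0, 2 on the high-fat diet in place of 1 (adding Hspa1b) and 2 between the diets in CIA mice in place of 0. Fitting just the compared groups called 0 on the high-fat diet, as did the adipocyte covariate. Leaving out 1 library at a time gave 0 to 1 on the high-fat diet, 0 to 4 over both diets (main count 3) and 0 to 1 between the diets in CIA mice. Over both diets DESeq2 and upper-quartile scaling called 4, adding Dnajb1 (adjusted p = 0.0388 and 0.0499), and both log2 FPKM fits called 2, without Hspa1a (0.0546 and 0.0572). Over both diets the replicate block called 3. Whether the letters a to c pair the libraries was not settled. Of 15 same-letter pairs, 5 had a correlation over 0.1 (range -0.43 to 0.46). Pairs of unlike letters were not compared, so these values cannot decide whether the letters mark pairs. No paired reading is made. Among all genes, the block moved the count on the high-fat diet from 1610 to 776 and that between the diets in CIA mice from 588 to 0. DESeq2 called 845 genes on the regular diet in place of 4, 3327 on the high-fat diet, 129 between the diets in sham mice in place of 0, 2028 between them in CIA mice and 22 for the difference of the arthritis effects in place of 0. Fitting just the compared groups called 0, 492, 441 and 0 genes on the regular diet, on the high-fat diet, between the diets in sham mice and between them in CIA mice. Leaving out 1 library at a time gave 0 to 16 genes on the regular diet, 0 (without either high-fat sham library) to 3738 (without regular-diet CIA b) on the high-fat diet, and, over both diets, 2 without high-fat sham b and 1236 without high-fat sham a in place of 3542. It gave 0 between the diets in CIA mice for every library left out except regular-diet CIA b (3224), and 0 to 6 between them in sham mice. Limma voom called 1 on the regular diet and 297 between the diets in CIA mice, and limma on log2(FPKM + 0.1) called 8 on the regular diet.

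No called log2 fold change of Hspb1, Hspa1b or Hspa1a changed sign under any alternative run. Signs that turned belonged to genes not called in the comparison concerned. The adipocyte covariate gave Hspa8 -0.34, Hsp90aa1 -0.39, Hsp90ab1 -0.054, Hsph1 -0.37, Hspd1 -0.29 and Hspe1 -1.14 on the high-fat diet, and Hspa8 -0.39, Hsp90aa1 -0.42, Hsp90ab1 -0.088 and Hsph1 -0.55 over both diets. For arthritis on the regular diet Hsp90ab1 became 0.013 with voom, 0.0085 with only the groups compared, and 0.076 and 0.077 on the log2 FPKM scales. The difference between the arthritis effects became, for Hspa1a, -0.045 with voom, -0.28 with the replicate block, and -0.072 and -0.15 on log2 FPKM with pseudocounts of 1 and 0.1. Between the diets in sham mice, the replicate block gave Hspa1a 0.12, Hspa1b 0.16 and Hsp90aa1 -0.022. There, log2 FPKM gave Hspa1a 0.034 and 0.073, Hspa1b 0.11 and 0.12 and Hsp90ab1 0.062 on both scales. Between the diets in CIA mice, Hspe1 became -0.00048 with voom and -0.028 with the replicate block.

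Leave-one-out ranges that crossed 0 were these. On the high-fat diet Hspd1 ran from -0.30 to 0.44 and Hspe1 from -0.38 to 0.44. Over both diets Hspd1 ran from -0.26 to 0.12 and Hsp90aa1 from -0.037 to 0.31. On the regular diet Hspa8 ran from -0.37 to 0.10, Hsp90ab1 from -0.15 to 0.079, Hspd1 from -0.46 to 0.032 and Hsph1 from -0.57 to 0.0085. For the difference between the arthritis effects Hspa1b ran from -0.40 to 0.24, Hspa1a from -0.17 to 0.52, Hspb1 from -0.39 to 0.064 and Hspd1 from -0.091 to 0.65. Between the diets in CIA mice Hspe1 ran from -0.44 to 0.38, Hspa1a from -0.35 to 0.24, Hspd1 from -0.36 to 0.39, Hspa1b from -0.45 to 0.19 and Dnajb1 from -0.025 to 0.18. Between the diets in sham mice Hspa1a ran from -0.54 to 0.13, Hspa1b from -0.32 to 0.16, Hsp90ab1 from -0.19 to 0.034, Hsp90aa1 from -0.092 to 0.21 and Hspb1 from -0.35 to 0.032. The cause of these changes was not tested. Where a fit leaves 1 high-fat sham library, that library is assumed to vary like the other groups.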
